A study of Drosophila melanogaster with 12 samples.

Results

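A set of 10 transcripts of dosage compensation and sex determination were followed through RNA that came down with the Slam protein in early Drosophila embryos. They were the noncoding RNAs roX1 and roX2, the mRNAs of the male-specific lethal proteins msl-1, msl-2, msl-3, mle and mof, and the mRNAs of Sxl, sisA and dpn. All were taken by symbol, so they are 10 of the 15682 genes counted in the antibody experiment and 10 of the 17559 counted in the GFP-binder experiment. All 10 passed the minimum of counts in both experiments. They were selected on what was known of the pathway and on their read counts in the antibody experiment, in which roX1 and sisA had stood out with the Slam antibody, so the values of that experiment are given as a description without a test. The GFP-binder experiment used other samples.

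All embryos were 1.5 to 3 h old, a time that spans the last syncytial divisions and cellularization, in which Slam marks the ingrowing furrow. In the antibody experiment, lysate of wild-type embryos was precipitated with guinea pig antibody against Slam (3 libraries, Slam 1 to 3) or, as the control, against Dia, a formin that also sits at the furrow (4 libraries, Dia 1 to 4). In the GFP-binder experiment, the same GFP-binding matrix was put to lysate of embryos with a GFP-slam genomic transgene, in which GFP is fused to the N terminus of Slam under the control of the gene's own sequences (2 libraries, GFP-slam 1 and 3), and to lysate of wild-type OrR embryos without GFP (3 libraries, wild type 1 to 3). Both comparisons ask which RNAs came down with Slam beyond the control precipitate. Wild-type embryos gave 3 of the 4 groups, and the sources do not say that embryos were sorted by sex or that libraries came from separate collections, so errors measure the spread between libraries. No library of the unprecipitated lysate was analysed here, and in such bulk samples more cells with a transcript and more RNA per cell cannot be told apart.

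In Drosophila males, the single X chromosome is transcribed at a raised level by the MSL complex, in which MSL1 and MSL2 form the scaffold, MSL3 reads a histone mark of active genes, MOF acetylates histone H4 and the helicase MLE remodels roX RNA so that it can join. The roX RNAs are nuclear, are made from the X and can stand in for each other. In females the splicing factor Sxl blocks translation of msl-2. Whether Sxl is switched on is decided in the syncytial embryo by counting the X chromosomes, for which sisA is an X-linked activator and dpn an autosomal repressor. In the blastoderm, roX1 is transcribed in both sexes, whereas roX2 comes on later and in males.

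In the fit of all genes, slam was higher with Slam antibody than with Dia antibody by 6.29 on the log2 scale (SE 0.767, edgeR adjusted p = 0.00421) and higher with GFP-slam than with wild type by 4.03 (SE 0.253, adjusted p = 8.1e-05), while dia was lower by -3.45 (SE 0.545, adjusted p = 0.00664) in the antibody comparison. Libraries of the antibody experiment held 4383704 (Dia 3) to 31647090 counts, and those of the GFP-binder experiment 20170936 to 47249817. Levels are given as CPM, the share of a library's reads after TMM normalization, and ratios are log2 ratios of the edgeR fit, of the Slam precipitate over its control. The experiments were normalized apart, so levels are not tested between them. Markers of the labelled stage were present. Maternal transcripts summed to 5312 to 9118 CPM in every antibody library, of which CycB alone gave 3399 to 6874. Early zygotic genes summed to 525 to 1572, whereas eggshell genes reached at most 2.60 and yolk protein genes at most 1.96. Genes of later differentiation were not absent, with sums of 227 to 741 CPM with Slam antibody and 169 to 2004 CPM with Dia antibody.

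The 2 roX RNAs were higher with the Slam antibody than with the Dia antibody in every library, and of the mRNAs of the MSL proteins that work with them only msl-1 was. The mRNA of sisA rose beside the roX RNAs, and the mRNA of mof was lower. In the fit over all genes, 3 of the 10 transcripts were past an adjusted p of 0.05 in the higher direction, in which 6.84% of all genes tested were called. One of the 10, mof, was past it in the lower direction, against 3.62% of all genes, and the other 6 were not past it. These calls are given for completeness and nothing is read from them, since the choice of genes had used this comparison. The median ratio of the 10 was 0.52, beside -0.03 for all 7466 genes tested.

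**Figure D1:**
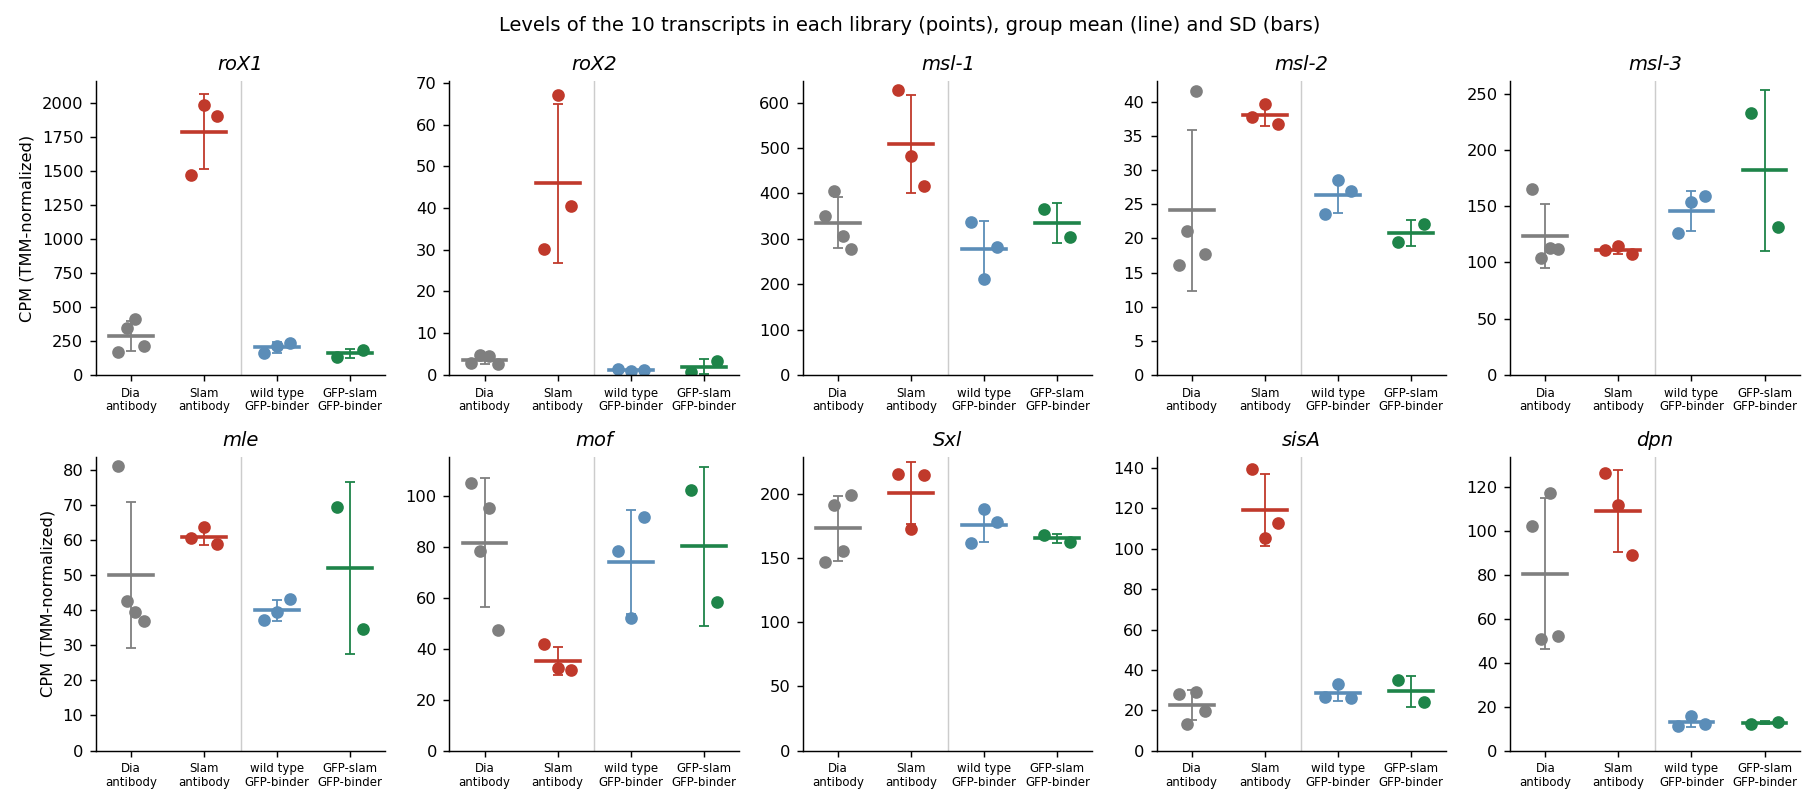
Level of each of the 10 transcripts in CPM (y axis, linear and starting at 0, its own scale in each panel) in the 4 groups of libraries. Points are libraries, the thick line is the group mean and the bar is the SD. With Slam antibody (red) roX1, roX2 and sisA stand above the Dia libraries (grey), msl-1 just above them, and mof below them. GFP-slam (green) and wild type (blue) overlap for every transcript except msl-2. Single GFP-slam libraries stand above wild type for roX2, msl-1, msl-3, mle, mof and sisA.

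The RNA roX1 is encoded on the X at 3857230 to 3862697 in the coordinates of the deposited tables, which give a transcript of 4421 bases. Its level was 169, 343, 413 and 215 CPM in Dia 1 to 4. It was 1472, 1986 and 1905 CPM in Slam 1 to 3. The lowest Slam library thus lay far above the highest Dia library, and the SD within each group was small beside the gap. Mean levels were 1788 ± 276 CPM (SD, n = 3) with Slam antibody and 285 ± 113 CPM (SD, n = 4) with Dia antibody, a 6.28-fold difference. The fitted log2 ratio was 2.65 (SE 0.301), and 3.11% of the genes tested had a higher one. In the annotation roX1 overlaps the gene ec, and the sources do not say whether reads were counted by strand. The level of ec itself ran from 39.3 to 77.2 CPM with Dia antibody and from 50.8 to 116 CPM with Slam antibody, with overlapping groups and a log2 ratio of 0.52 (SE 0.308, edgeR adjusted p = 0.281).

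With the GFP-binder, roX1 was not higher than in the control. The level of roX1 was 157, 216 and 237 CPM in wild type 1 to 3. It was 134 and 182 CPM in GFP-slam 1 and 3. The groups overlapped, and 1 GFP-slam library was the lowest of all 5. The log2 ratio was -0.36 (95% interval -1.01 to 0.29, edgeR adjusted p = 0.9999, as for all 10 transcripts in this experiment). This interval ends below the one of the antibody comparison, which ran from 2.00 to 3.31, but roX1 had been chosen with the antibody values in view. The antibody, the control and the lysate also differ between the experiments, and the difference between them was not tested.

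The other roX RNA, roX2, is a short RNA of the X (11579065 to 11580432, transcript of 522 bases) and was rare in the control precipitates. Its level was 2.86, 4.83, 4.45 and 2.58 CPM in Dia 1 to 4, from 41, 76, 20 and 55 reads. With Slam antibody it was 30.3, 67.1 and 40.4 CPM, from 638, 2185 and 1168 reads. No Slam library came near the Dia range. The means were 45.9 ± 19.0 CPM (SD, n = 3) and 3.68 ± 1.13 CPM (SD, n = 4), a 12.5-fold difference and a log2 ratio of 3.66 (SE 0.357). Only 1.23% of the genes tested had a higher ratio. In proportion roX2 rose more than roX1. With Dia antibody 59.1 to 92.8 reads of roX1 were counted per read of roX2, and with Slam antibody 29.6 to 48.7, ranges that did not overlap. The Dia ratios rest on the 20 to 76 reads of roX2, and the difference between the 2 RNAs was not tested.

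In the GFP-binder experiment roX2 was near the limit of what could be measured. It had 29, 30 and 32 reads in wild type, or 1.42, 1.04 and 1.08 CPM. It had 25 reads (0.697 CPM) in GFP-slam 1 and 171 reads (3.30 CPM) in GFP-slam 3. One GFP-slam library was thus below and the other above all of the wild-type libraries. The log2 ratio was 0.77 with a 95% interval from -0.85 to 2.39, and it was -0.78 without GFP-slam 3 and 1.49 without GFP-slam 1, so its sign rested on which of the 2 libraries was kept.

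**Figure D2:**
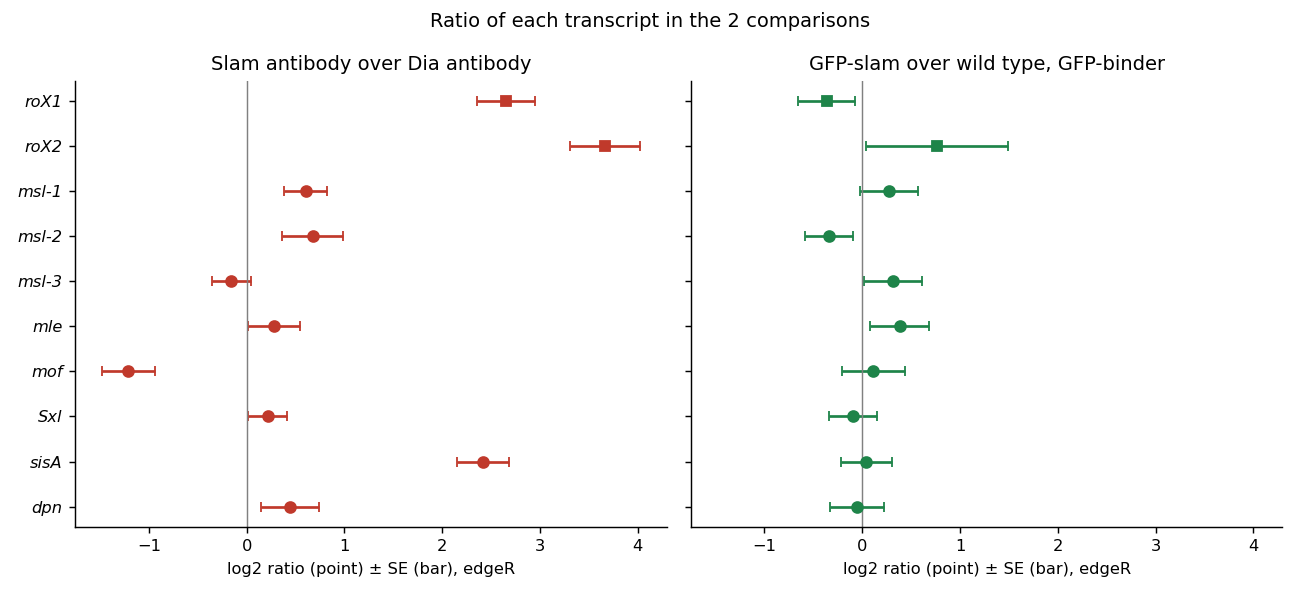
Log2 ratio of each transcript with Slam antibody over Dia antibody (left) and with GFP-slam over wild type on the GFP-binder (right); points are edgeR ratios, bars are 1 SE and squares mark the noncoding roX RNAs. On the left the ratios run from -1.21 (mof) to 3.66 (roX2), and on the right from -0.36 (roX1) to 0.77 (roX2).

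Among the mRNAs of the MSL proteins, that of the scaffold subunit MSL1 was the most read. The level of msl-1 was 350, 406, 306 and 278 CPM in Dia 1 to 4 and 627, 483 and 417 CPM in Slam 1 to 3. The lowest Slam value lay just above the highest Dia value. The log2 ratio was 0.60 (SE 0.220), far below that of the roX RNAs. With the GFP-binder it was 337, 211 and 283 CPM in wild type and 366 and 303 CPM in GFP-slam, with overlapping groups and a ratio of 0.27 (95% interval -0.39 to 0.93).

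The mRNA of MSL2, the subunit that only males make in quantity, was scarce. Its level was 16.2, 21.1, 41.6 and 17.7 CPM in Dia 1 to 4 and 37.7, 39.7 and 36.7 CPM in Slam 1 to 3. Dia 3, the library with the fewest reads, was above all of the Slam libraries, and the other 3 Dia libraries were below them. The log2 ratio was 0.68 (SE 0.311), and without Dia 3 it was 0.96. In the GFP-binder experiment msl-2 had 23.5, 28.6 and 26.9 CPM in wild type against 19.5 and 22.2 CPM in GFP-slam. This was the only one of the 10 whose groups did not overlap there, against 8.42% of all genes with GFP-slam below and 8.98% with it above. The ratio was -0.34 (95% interval -0.88 to 0.20). In the annotation msl-2 overlaps mir-4971.

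The mRNAs of the chromodomain subunit MSL3 and of the helicase MLE had overlapping levels with both antibodies. The level of msl-3 was 165, 104, 113 and 112 CPM in Dia 1 to 4 and 111, 115 and 107 CPM in Slam 1 to 3, a log2 ratio of -0.16 (SE 0.203). The level of mle was 81.0, 42.6, 39.6 and 36.9 CPM in Dia 1 to 4 and 60.6, 63.6 and 58.8 CPM in Slam 1 to 3, a log2 ratio of 0.28 (SE 0.268). In both, Dia 1 stood above the other Dia libraries. In the annotation msl-3 overlaps form3, which did not pass the minimum of counts in the antibody experiment. With the GFP-binder, the ratios were 0.32 for msl-3 (95% interval -0.35 to 0.98) and 0.38 for mle (-0.30 to 1.06), and in both genes GFP-slam 1 was the highest of the 5 libraries while GFP-slam 3 lay within or below the wild-type range.

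The mRNA of mof, the histone acetyltransferase, was lower with the Slam antibody. On the X at 5873840 to 5876853, mof had 105, 78.6, 95.5 and 47.4 CPM in Dia 1 to 4. With Slam antibody it had 41.7, 32.5 and 31.5 CPM. All of the Slam libraries were below all of the Dia libraries, although Dia 4 was close to Slam 1. The means were 35.2 ± 5.60 CPM (SD, n = 3) and 81.7 ± 25.4 CPM (SD, n = 4), the log2 ratio was -1.21 (SE 0.268), and 0.616% of the genes tested had a lower one. In the fit over all genes mof was no longer past the threshold when Slam 2 or Slam 3 was left out, with ratios of -1.16 in both cases. With the GFP-binder mof had 78.4, 52.0 and 91.9 CPM in wild type and 102 and 58.2 CPM in GFP-slam, a ratio of 0.11 (95% interval -0.61 to 0.84).

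Sxl, the switch gene of female development, had overlapping levels with both antibodies too. Its level was 147, 191, 155 and 199 CPM in Dia 1 to 4 and 215, 173 and 215 CPM in Slam 1 to 3. The groups overlapped, and the log2 ratio was 0.21 (SE 0.199). In the GFP-binder experiment Sxl had 162, 188 and 178 CPM in wild type and 168 and 163 CPM in GFP-slam, with a ratio of -0.09 (95% interval -0.64 to 0.46). The annotation lists 25 transcripts of Sxl and 2 genes that overlap it, mir-4956 and lncRNA:CR46494. Counts per gene do not separate the early transcripts made from the establishment promoter from the later ones.

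The mRNA of sisA, which encodes a basic leucine zipper protein that activates Sxl, was the protein gene closest to the roX RNAs. It lies on the X at 11321579 to 11322357, with a transcript of 779 bases. Its level was 28.2, 13.4, 29.2 and 19.6 CPM in Dia 1 to 4 and 139, 105 and 113 CPM in Slam 1 to 3. The Slam libraries were all above the Dia libraries, with means of 119 ± 17.9 CPM (SD, n = 3) and 22.6 ± 7.50 CPM (SD, n = 4), a 5.28-fold difference and a log2 ratio of 2.41 (SE 0.266). With the GFP-binder sisA had 26.4, 33.2 and 26.0 CPM in wild type and 34.8 and 24.0 CPM in GFP-slam. Those groups overlapped, with a ratio of 0.04 (95% interval -0.55 to 0.63).

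The repressor gene dpn, which encodes a basic helix-loop-helix protein and is also used in neural precursors, differed from sisA in its levels. It had 102, 50.8, 117 and 52.0 CPM in Dia 1 to 4, a split into 2 high and 2 low libraries, and 126, 112 and 88.8 CPM in Slam 1 to 3. The groups overlapped, and the log2 ratio was 0.44 (SE 0.301). With the GFP-binder dpn was at 11.2, 15.7 and 12.2 CPM in wild type and 12.1 and 13.1 CPM in GFP-slam, a ratio of -0.05 (95% interval -0.68 to 0.57). All of these values lay below the lowest one of the antibody experiment, a difference between tables that was not tested. The annotation lists 3 genes that overlap dpn, the antisense RNA asRNA:CR44275 and the RNAs sisRNA:4 and sisRNA:CR46360. Reads of the strands cannot be told apart without a stated strand setting.

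Across the 10, the groups did not overlap for 4 transcripts with the Slam antibody above (roX1, roX2, msl-1 and sisA; 15.2% of all genes) and for 1 with it below (mof; 12.2% of all genes). With the GFP-binder, no transcript of the 10 was past an adjusted p of 0.05 in edgeR, against 0.525% of all genes higher and 0.228% lower. None had an unadjusted p under 0.05 either, DESeq2 called 0, and the median ratio was 0.08 beside 0.02 for all 8767 genes tested. A fitted ratio above 2, which is 4-fold, was reached by roX1, roX2 and sisA with Slam antibody (5.5% of all genes) and by none of the 10 with GFP-slam (1.16% of all genes). With 2 GFP-slam libraries the intervals are wide, and only that of roX2 reaches a 4-fold rise.

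**Figure D3:**
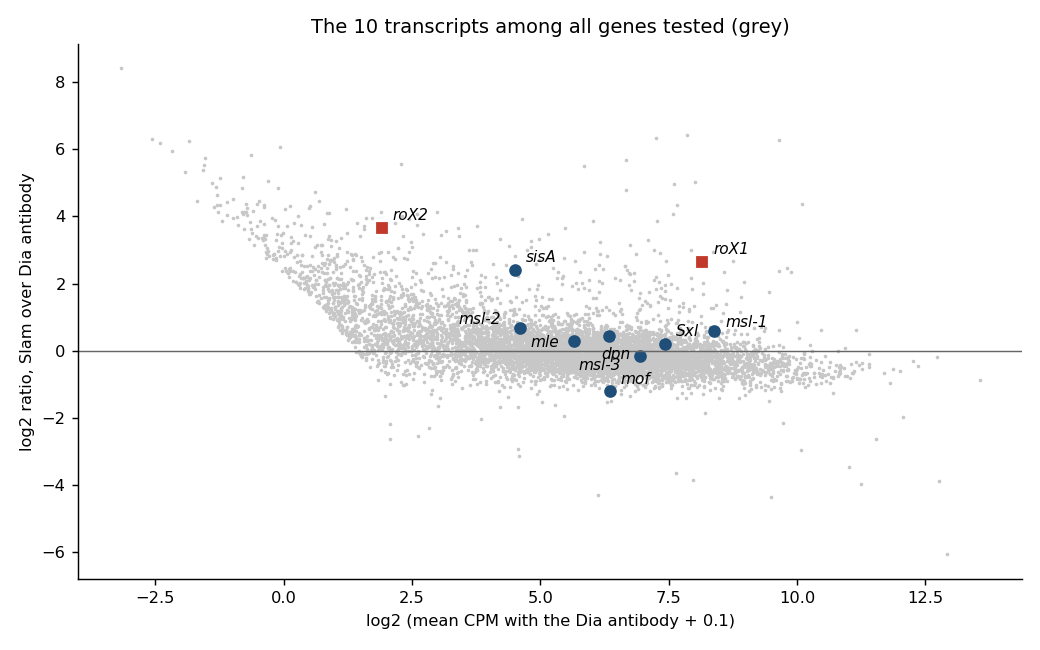
Log2 ratio of Slam over Dia antibody (y axis) against the mean level with Dia antibody (x axis, log2 of CPM plus 0.1) for all 7466 genes tested (grey), with the roX RNAs as red squares and the protein genes as blue circles. roX1, roX2 and sisA stand above the bulk of genes of like level, and mof below it. The slanted lower left edge is where the minimum of counts removes genes.

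Whether the roX RNAs rose relative to the mRNAs of their partners does not depend on how libraries are scaled, since both are counted in the same library. With Dia antibody there were 0.482, 0.844, 1.35 and 0.772 reads of roX1 per read of msl-1. With Slam antibody there were 2.35, 4.11 and 4.57. The library ranges did not overlap, and the same held for roX1 against msl-2, msl-3, mle, mof, Sxl and dpn. Over these 7 genes the mean log2 of the read ratio was higher with Slam antibody by 1.96 (msl-2) to 3.89 (mof). For roX2 it was higher by 2.85 to 4.78 over the same 7 genes, again without overlap. The ratios of each roX RNA share its reads, and the 10 transcripts were chosen with the antibody counts in view. How many of the ratios separate is thus a description, and nothing is read from it. For sisA alone of the 8 protein genes the ranges overlapped, with a log2 of roX1 reads per sisA read from 2.58 to 4.68 with Dia antibody and from 3.40 to 4.24 with Slam antibody. With the GFP-binder the libraries overlapped in all 8 ratios, with differences from -0.66 to -0.02 for roX1 and from 0.08 to 0.72 for roX2.

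**Figure D4:**
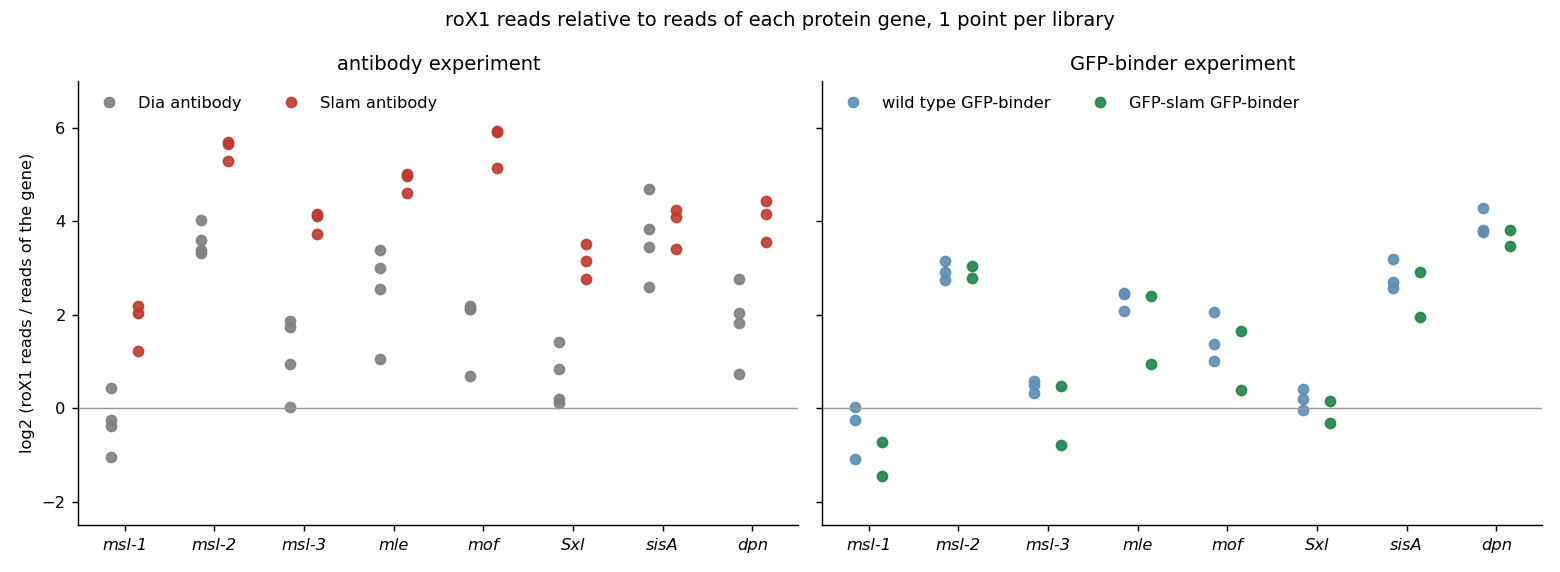
Reads of roX1 relative to reads of each of the 8 protein genes on a log2 scale, 1 point per library, in the antibody experiment (left; Dia grey, Slam red) and the GFP-binder experiment (right; wild type blue, GFP-slam green). On the left the red points stand above the grey ones for every gene except sisA, and on the right the groups overlap for every gene.

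Levels of different genes can be set against each other only per length, which was given for 4 of the 10. The lengths came from the authors' list of genes for the antibody comparison. These 4 are also the ones past the threshold in that comparison. How their order differs between Slam and Dia antibody is thus a description, and nothing is read from it. With Slam antibody the order was roX1 with 404 ± 62.5 CPM per kb, sisA with 153 ± 22.9, roX2 with 88.0 ± 36.4 and mof with 11.7 ± 1.86 (SD, n = 3), and each step was larger than the SDs of its neighbours. With Dia antibody roX1 was again first at 64.4 ± 25.5 CPM per kb. There sisA at 29.0 ± 9.63 and mof at 27.1 ± 8.41 did not differ beyond their spread, and roX2 was last at 7.05 ± 2.16 (SD, n = 4). In wild type on the GFP-binder the values were 46.0 ± 9.34 for roX1, 36.7 ± 5.16 for sisA, 24.6 ± 6.73 for mof and 2.26 ± 0.401 for roX2 (SD, n = 3). The order of the means was that of the Dia libraries, although the libraries of roX1 (35.6 to 53.7) and sisA (33.4 to 42.6) overlapped. With GFP-slam sisA had 37.8 ± 9.80, roX1 35.8 ± 7.69, mof 26.6 ± 10.3 and roX2 3.83 ± 3.53 CPM per kb (SD, n = 2), and the first 3 did not differ beyond their spread.

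The genes whose level ran most like that of roX1 over the 7 antibody libraries were CG3036 (r = 0.992), srp (0.992), bwa (0.989), Uhg2 (0.988) and Mipp1 (0.988). Of these, srp encodes a GATA factor of blood and fat body, and Uhg2 hosts small nucleolar RNAs in its introns. The libraries fall into 2 groups, so these values mostly restate the difference between antibodies, and over the 5 GFP-binder libraries they were -0.13, 0.82, -0.28, 0.54 and 0.71 in the same order. Among the 10, roX2 came ninth of 7465 genes (r = 0.982), sisA was at 0.895 and mof at -0.81.

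On the X lie 5 of the 10 (roX1, roX2, mof, Sxl and sisA), and they include roX1, roX2 and sisA, which had the highest ratios of the 10, mof, which had the lowest, and Sxl, whose groups overlapped. The other 5, msl-1 among them, are autosomal. Over the genome, the median ratio was -0.08 for 1235 X-linked genes and -0.02 for 5965 autosomal genes, and 5.91% and 7.02% of them were called higher. With the GFP-binder the medians were 0.03 and 0.02. Of 44 genes matched to a long noncoding RNA in the annotation, roX1 and roX2 among them, 37 had a ratio above 0. Of all 7466 genes tested, 3564 had one above 0. The median was 1.78, beside -0.04 for 5820 protein-coding genes. With the GFP-binder the median was -0.11 for 151 long noncoding RNAs and 0.03 for 6757 protein-coding genes. The minimum of counts was a mean over all libraries, 50 for the antibodies and 10 for the GFP-binder. Genes scarce with Dia antibody could thus be kept only where high with Slam antibody, and the 2 sets differ. Nothing is read from these medians.

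Other noncoding genes, the hosts of snoRNAs and Hsromega, were mostly higher with the Slam antibody. Of 7 tested, 6 were higher and 0 lower at an edgeR adjusted p under 0.05, against 6.84% and 3.62% of all genes. The median ratio was 3.00. This list was written with earlier results of these data known. The minimum of counts, a mean over all libraries, can also keep scarce genes through 1 group alone. Mean levels with Dia antibody were only 2.25 CPM for Uhg4 and 1.33 CPM for Uhg8. Nothing is thus read from the count or the median. Hsromega, the RNA of the omega speckles, had 300 ± 49.7 CPM (SD, n = 3) with Slam antibody and 43.9 ± 12.8 CPM (SD, n = 4) with Dia antibody, a ratio of 2.77. The ratios were 3.93 for Uhg2, 3.00 for Uhg5, 3.50 for Uhg4 and 2.59 for Uhg1, each without overlap of the groups. The calls of Uhg1 (without Dia 2) and of Uhg8 (without Dia 1, Slam 2 or Slam 3) were lost when a library was left out. With the GFP-binder 0 of 7 were called by edgeR and the median was -0.29. There Uhg5 was lower with GFP-slam, 5.33 ± 1.20 CPM (SD, n = 2) against 16.2 ± 7.05 CPM (SD, n = 3), at a ratio of -1.60 that did not pass (edgeR adjusted p = 0.172) but was the 1 call of the list by DESeq2 (adjusted p = 0.0161) and its 1 gene with an unadjusted p under 0.05.

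Transcripts of other partners of dosage compensation held no call by edgeR. Of 12 such transcripts, among them the X-binding factor Clamp, the kinase JIL-1 and the translational repressor Unr, 0 were called in either direction in either experiment. Of all genes, 6.84% were called higher and 3.62% lower with the Slam antibody, and 0.525% and 0.228% with GFP-slam. For a list this short a count of 0 is near these shares, and nothing is read from it. An unadjusted p under 0.05 was reached by 1 with a higher and 4 with a lower level in the antibody experiment, where DESeq2 called 3 lower, Mtor and Nup153 of the nuclear pore and the remodeller gene Iswi; on the GFP-binder both counts were 0. Their median ratio was -0.45 for the antibodies and 0.05 on the GFP-binder. The most read were Top2, a topoisomerase, at 2182 ± 707 CPM (SD, n = 3) against 1419 ± 220 CPM (SD, n = 4), and the helicase gene Rm62 at 910 ± 109 against 1235 ± 279 CPM. The 7 transcripts of the NSL complex, in which MOF works at promoters of both sexes, also held 0 calls in edgeR, with a median of -0.50. This count too is near the shares of all genes, and nothing is read from it. Of the 7, 3 were lower at an unadjusted p under 0.05, and DESeq2 called 0. All of these counts were 0 on the GFP-binder. Its most read members were Hcf, with a ratio of -0.12 (SE 0.194), and Rcd1, with one of -0.51 (SE 0.287). For every list, counts at an unadjusted p under 0.05 have no share of all genes beside them, and nothing is read from them. The DESeq2 counts over all genes are given in the closing section on processing.

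Another 10 genes count the X or control early Sxl. Of these, edgeR called 0 higher and 1 lower with the Slam antibody, against 6.84% and 3.62% of all genes. DESeq2 called 1 higher (os) and 1 lower (vfl), and an unadjusted p under 0.05 was reached by 2 with a higher and 3 with a lower level. The lower one was vfl, which encodes the genome activator Zelda, at 204 ± 66.6 CPM (SD, n = 3) with Slam antibody and 510 ± 141 CPM (SD, n = 4) with Dia antibody, a ratio of -1.32 (SE 0.295, edgeR adjusted p = 0.0179) that no longer passed without Slam 2 or Slam 3. The other X-linked counting genes, named here after their values were seen, were at 0.70 for sc (SE 0.235, edgeR adjusted p = 0.0746), 1.137 for os (SE 0.362, adjusted p = 0.0651) and -0.14 for run (SE 0.228, adjusted p = 0.724). None passed in this fit, but os passed with the replicate number as a block (adjusted p = 0.0274), in DESeq2 (0.0347), without a minimum of counts (0.0389) and without Dia 3 (0.0225), and sc without a minimum (0.0486) and without Dia 1 (0.0394). All had a lower fitted ratio than sisA. The list's median was -0.14 for the antibodies and -0.04 on the GFP-binder, where 0 of 10 were called by edgeR or DESeq2 or had an unadjusted p under 0.05.

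Sex determination splicing was covered by 13 genes, of which 11 could be tested. Of these, edgeR called 2 higher and 0 lower with the Slam antibody, against 6.84% and 3.62% of all genes. The 2 higher ones were CG7358 and tra. CG7358, named Flacc in the annotation, encodes a subunit of the complex that methylates adenosines in mRNA. The switch gene tra is spliced by Sxl in females. CG7358 had 858 ± 326 CPM (SD, n = 3) against 179 ± 51.9 CPM (SD, n = 4), a ratio of 2.26 (SE 0.304, edgeR adjusted p = 0.000729). The level of tra was 24.4 ± 4.72 CPM (SD, n = 3) against 9.07 ± 1.80 CPM (SD, n = 4), a ratio of 1.43 (SE 0.296, adjusted p = 0.0124) that did not pass without Slam 3. The sex-specific transcription factor genes dsx and fru were below the minimum. With the GFP-binder 0 of 12 were called by edgeR or DESeq2 or had an unadjusted p under 0.05, and the median was 0.06.

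**Figure D5:**
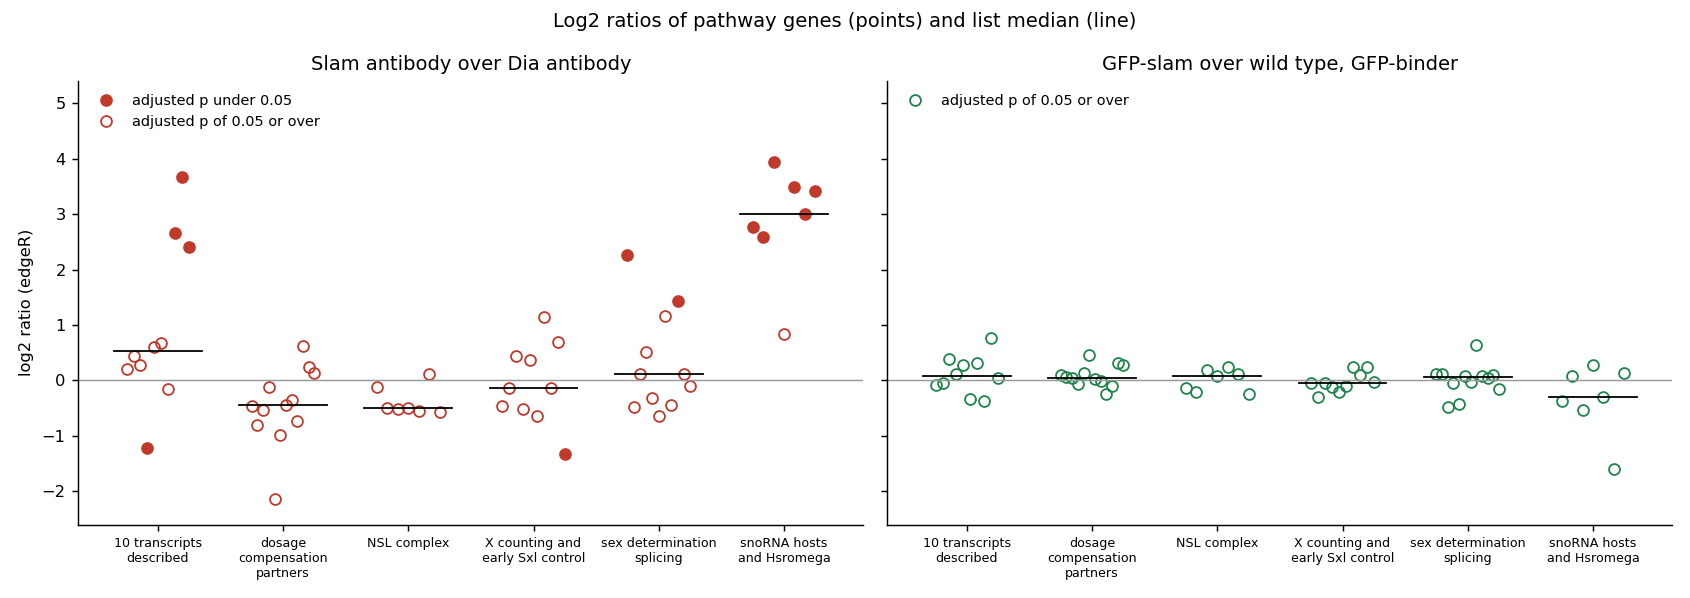
Log2 ratios of the 10 transcripts described and of 5 lists of related genes, with Slam over Dia antibody (left) and GFP-slam over wild type on the GFP-binder (right). Points are genes, filled where the edgeR adjusted p was under 0.05, and the line is the list's median. On the left the snoRNA hosts and Hsromega stand highest with a median of 3.00 and the dosage compensation partners lie at -0.45, and on the right no point is filled.

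Lists of stage and cell type gave the setting for these values. In the antibody experiment edgeR called 0 of 10 maternal transcripts (median -0.33, 2 lower at an unadjusted p under 0.05). It called 0 of 6 pole cell transcripts (median -0.31, 0 at an unadjusted p under 0.05). Of all genes 6.84% were called higher and 3.62% lower, so these counts of 0 are near the shares of all genes. Early zygotic genes held 2 higher of 15, h and nullo, against 6.84% of all genes, with a median of 0.23. Of 6 tested genes of later differentiation 1 was higher, Obp99a, and their summed level ran from 227 to 741 CPM with Slam antibody and from 169 to 2004 CPM with Dia antibody. Eggshell and yolk protein genes had no gene above the minimum. DESeq2 added 1 maternal transcript (nos, lower) and 1 early zygotic one (zen, higher). With the GFP-binder none of these lists held a call by either tool. There 1 early zygotic gene in each direction had an unadjusted p under 0.05. The early zygotic gene Sry-alpha had mean levels of 402 and 344 CPM with Slam and Dia antibody. On the GFP-binder it had 0 CPM with GFP-slam and 0.0230 CPM in wild type. The reason was not tested, and levels of a gene in the 2 experiments may not be comparable. The part of these cells and stages in the ratios of the 10 transcripts was not tested.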

How the data were processed

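RNA bound in precipitates was made into TruSeq libraries and read on a HiSeq2000. The authors deposited whole-number read counts per gene for 12 libraries in 2 tables, with 0 columns left unused. DESeq2, STAR 2.5.0, FastQC 0.11.4 and bcl2fastq 2.17.1.14 are listed in the processing notes of the submitters. Not given in the sources used here are the build, the annotation, how reads were counted and whether by strand. The authors' comparison tables, which hold log2 ratios and adjusted p-values, were used for gene positions and lengths only. Positions are printed for the 4 members listed there, and of 1900 matched genes 99.9% share a start or end with Release 6, whose RefSeq table gave arms, overlaps and biotypes.

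Each experiment was fitted apart in edgeR 4.0.16 (R 4.3.3; TMM, robust glmQLFit, glmQLFTest, Benjamini-Hochberg over genes with a mean normalized count of at least 50 for antibodies or 10 for the GFP-binder, threshold 0.05). The SE is the ratio divided by the square root of F, and 95% intervals use the t quantile of the fit. Of the counted genes, 394 and 7 have no symbol. Correlations used log2 CPM with a prior count of 2. Python 3.11.15, numpy 2.4.6, pandas 2.3.3 and matplotlib 3.10.9 did the rest. The fit was tested on simulated data.

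The members and lists were chosen with earlier results of these data known. All members, slam and dia are named, and of each list the genes past the threshold in either experiment (at most 5) or else the 2 most read, and the 5 genes most like roX1. Same-numbered antibody libraries deviated together (r = 0.254, 0.391 and 0.151), although Slam 3 had r = 0.278 with Dia 4, and the replicate number was tried as a block. Other alternatives were RLE or library totals, DESeq2 1.42.0, other minimums of counts and each library left out. Pairs of replicates differed by more than their counts allow (chi-square over its degrees of freedom 54.9 to 362).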

Additional observations from a re-analysis of the deposited data

Results flagged for a closer look

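In the 4 Dia libraries, 2 of the 10 transcripts had 1 library far from the rest, where such a gap is expected by chance in about 1 of 20 groups. Both were in Dia 1. The level of msl-3 there was 165.0 CPM, and the gap to the next library was 0.850 of the group's range. The level of mle there was 81.0 CPM, with a gap of 0.871 of the range. Without Dia 1 neither transcript changed its side of the threshold.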

How the results depend on the processing

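Of 240 combinations of a transcript, an experiment and an alternative, 4 changed the side of the threshold: msl-1 in DESeq2, msl-2 without Dia 3 (both then past it), and mof without Slam 2 or Slam 3. Another 13 changed sign without passing it, 12 of them with the GFP-binder. With 1 library left out, the ratio of msl-3 with the antibodies ran from -0.35 to 0.0174. With the GFP-binder it ran from -0.78 to 1.49 for roX2, from -0.15 to 0.64 for msl-3, from -0.20 to 0.77 for mle, from -0.35 to 0.43 for mof, from -0.25 to 0.26 for sisA and from -0.17 to 0.0654 for dpn. With the replicate block mof turned to -0.14 and dpn to 0.11. In that experiment the signs of these 6 transcripts thus carry no direction. The count of the 10 that were lower with Slam antibody thus ran from 0 to 1 with 1 library left out. The counts over all genes moved more. With Slam antibody 511 genes were higher and 270 lower. Scaled by library totals only, 457 were higher and 416 lower. DESeq2 gave 772 and 494, and without a minimum 803 were higher. With the replicate number as a block, 782 were higher and 636 lower. Leaving out 1 library gave 271 to 558 higher and 17 to 446 lower. With the GFP-binder 46 were higher and 20 lower. DESeq2 gave 109 and 87, no minimum 121 and 165, and the replicate block 75 and 58. Leaving out 1 library gave 15 to 102 higher and 7 to 70 lower. Both GFP-binder pairs of 1 number had r = 0.191 and 0.208, too few to judge pairing. The block changed no call of the 10. With GFP-slam 1 or 3 left out, the lone library was assumed to vary like wild type. Without a minimum the median ratio of all genes moved to 0.37 with the antibodies, and the cause was not tested. The depth limits roX2 most, which rests on 20 to 76 reads in Dia libraries and 25 to 171 on the GFP-binder.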

Other observations

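Small nucleolar RNAs counted as genes of their own, listed after their values were seen, had medians of opposite sign in the experiments. With the antibodies 53 of 58 tested had a ratio above 0 (median 3.28), beside 3564 of all 7466 genes. EdgeR called 24 of the 58 higher and 0 lower, against 6.84% and 3.62% of all genes. With the GFP-binder 3 of 119 had one above 0 (median -2.2), beside 4677 of all 8767 genes, and 0 of the 119 were called in either direction. The minimums of counts differed, so the sets of genes differ, and nothing is read from these counts. Genes of the small chromosome 4 had a median ratio of 0.51 over 71 tested genes in the antibody experiment, where no other arm with more than 1 gene tested was above 0, and 0.13 over 79 with the GFP-binder.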
